A study of Bos taurus with 10 samples.

Results

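Genes of the circadian clock and of the PAR bZIP family were examined in mammary tissue of 10 lactating cows. The 10 genes considered were NFIL3, DBP, TEF, HLF, NR1D1, NR1D2, RORA, CLOCK, PER2 and CRY1, and a probe set counted when its only gene symbol in the platform annotation was one of these. This gave 11 probe sets for 6 genes (NFIL3, HLF, NR1D1, RORA, PER2 and CRY1) among 24016 probe sets on the array. DBP, TEF, NR1D2 and CLOCK had no probe set by this rule and were not analysed here.

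All cows were German Holstein Friesian heifers in mid lactation, brought to a common stage of the oestrous cycle with cloprostenol and milked out with oxytocin before the trial. In the 5 neighboring cows, 500 CFU of Escherichia coli 1303, a mastitis isolate, had been placed in 1 gland of the udder in 2 ml saline, and the tissue came, 24 h later, from other glands that had received no bacteria. The 5 control cows were healthy, were not inoculated, and were also sampled at 24 h. The array count per cow was 1. Neighboring samples 1, 2, 3 and 5 mixed tissue of a gland given saline with tissue of an untreated gland, and neighboring sample 4 was 1 untreated gland, so saline and the distant infection cannot be told apart in the pools. The paper describes control samples as combined from 2 glands per cow too, but its sources differ on this for some controls. The comparison asks whether tissue away from the infected gland differed from tissue of healthy cows. Several of these transcripts cycle over the day, and the clock hour of sampling is not given in the sources used here, so a part of the hour in the differences was not tested.

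The clock is a feedback loop of transcription factors. CLOCK and BMAL1 activate the genes of the PER and CRY proteins, which then repress that activation. In a second loop, RORA activates and NR1D1 and NR1D2 repress BMAL1 through a shared DNA element. The PAR bZIP factors DBP, TEF and HLF form an output arm that activates genes carrying a D-box, and NFIL3, also named E4BP4, binds the D-box as a repressor. NFIL3 and RORA also act in lymphoid cells, and NR1D1 in metabolism. Mammary tissue holds such a clock, and milk composition varies over the day.

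Values are on the log2 scale of RMA, one number per probe set after quantile normalization, so a difference of 1 is a ratio of 2. Array medians lay between 6.25 and 6.27. Caseins, the main milk proteins, were among the brightest signals, and the 8 measured genes of the epithelium list (caseins, lactalbumin, keratin 18, EPCAM and ELF5) had a mean level of 12.72 to 13.01 on the 10 arrays. A pair of arrays stood apart in the study's own screening, neighboring 5 as a biological and control 3 as a technical outlier. Neighboring 5 had grouped with the controls in that study's clustering of profiles, so leaving it out is not independent of the values tested here. The fit therefore follows the methods with 8 arrays, 4 per group, and the differences of the members and of the other clock and target genes that were called are also given on all 10 arrays. Because the tissue is bulk, fewer cells of a type and less RNA per cell cannot be told apart.

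Of the 6 measured genes, NFIL3 rose in neighboring glands, HLF and RORA fell, and NR1D1, PER2 and CRY1 did not pass the test. By probe set, 10 of 11 lay above the intensity filter, and at an adjusted p under 0.05 from limma 2 of these rose, against 17.7% of all probe sets tested, and 4 fell, against 12% of all. The groups of 4 did not overlap for 2 member probe sets that were higher (18.4% of all) and 3 that were lower (13.3% of all). The median difference over the 10 member probe sets was -0.16, against 0.03 over all 14409. At the stricter threshold of the methods (below 0.01 after adjustment, with more than 2-fold change), 1 member probe set was lower (1.05% of all), of RORA, and 0 were higher.

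On all 10 arrays limma called 0 member probe sets higher (7.16% of all) and 1, of RORA, lower (5.37% of all), and at an unadjusted p under 0.05 there were 1 higher and 2 lower. The share of all probe sets at the unadjusted cutoff is not given, here or below. The unadjusted counts therefore do not show whether members passed more often than other probe sets. On 10 arrays the groups did not overlap for 0 members in the higher direction (3.8% of all) and 0 in the lower (3.48% of all). Putting back neighboring 5 alone left 0 that rose (5.16% of all, and 2 at an unadjusted p under 0.05) and 1 that fell (3.1% of all). Putting back control 3 alone left 1 that rose (17.2% of all) and 4 that fell (12.5% of all). Neighboring 5 was thus the array on which most of these calls turned.

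**Figure D1:**
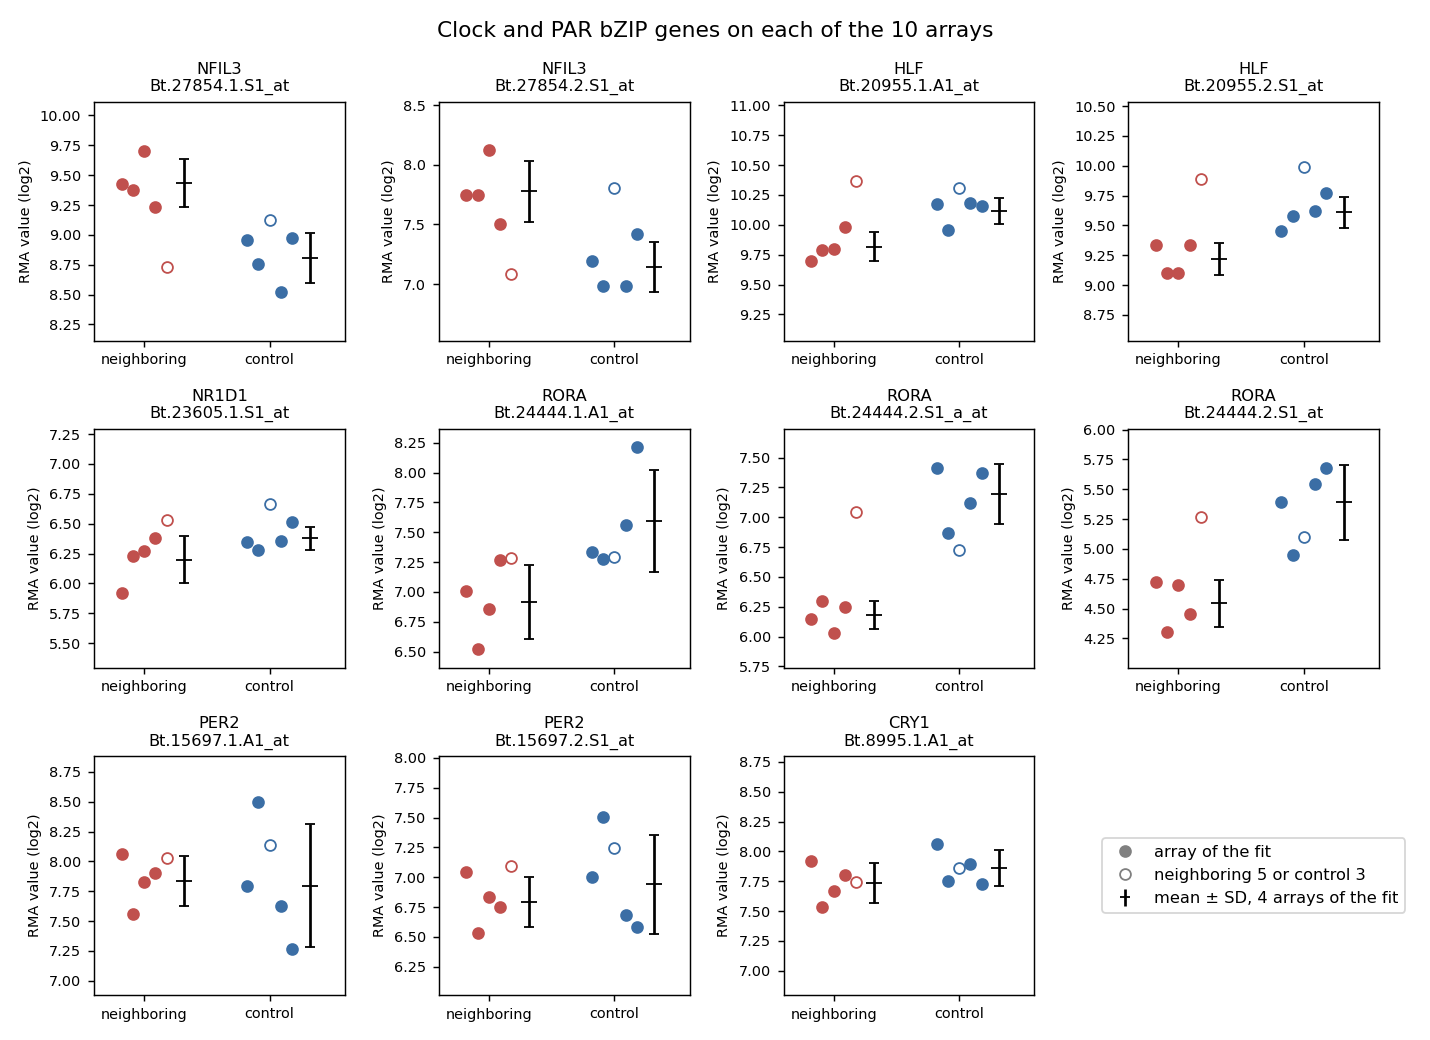
RMA value (log2) of each of the 11 probe sets on every array, with neighboring arrays at left and control arrays at right of each panel, with neighboring 5 and control 3 drawn open, and bars giving the mean ± SD of the 4 filled points. Both NFIL3 panels show the 4 filled neighboring points above the 4 filled control points, the RORA panels show them below, and the PER2 and CRY1 panels show the groups mixed.

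NFIL3, the D-box repressor, was higher in neighboring glands by both of its probe sets. On Bt.27854.1.S1_at, neighboring arrays 1 to 5 gave 9.43, 9.38, 9.71, 9.23 and 8.73, and control arrays 1 to 5 gave 8.96, 8.76, 9.12, 8.52 and 8.97. The first 4 neighboring cows all lay above every control, and neighboring 5 lay within the control range. The mean rose from 8.80 ± 0.21 to 9.43 ± 0.20 (SD, n = 4), a difference of 0.63 ± 0.14 (SE) or 1.55-fold, with a limma adjusted p of 0.00714. With all 10 arrays the difference was 0.43 (95% confidence interval 0.05 to 0.80, adjusted p = 0.108).

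The dimmer NFIL3 probe set, Bt.27854.2.S1_at, followed the same course. It read 7.75, 7.75, 8.12, 7.50 and 7.09 on neighboring arrays 1 to 5 and 7.19, 6.98, 7.80, 6.98 and 7.42 on control arrays 1 to 5. Here control 3 was above all neighboring arrays but neighboring 3, and neighboring 5 was again among the controls. The difference was 0.63 ± 0.15 (SE, adjusted p = 0.0108) on 8 arrays and 0.36 (adjusted p = 0.225) on 10. Both probe sets carry the same cluster number and measure 1 gene, so they are not separate evidence. Leaving out each of the 8 arrays in turn kept both calls, with differences of 0.54 to 0.70 for the brighter probe set and 0.52 to 0.73 for the dimmer.

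HLF, the activator of D-box genes among the PAR bZIP factors that could be measured, went the other way by a smaller amount. On Bt.20955.2.S1_at the neighboring arrays read 9.34, 9.10, 9.10, 9.33 and 9.89, and the controls 9.46, 9.58, 9.99, 9.62 and 9.78. The 4 neighboring arrays of the fit lay just under the lowest control, while neighboring 5 was higher than 4 of the 5 controls. HLF fell by 0.39 ± 0.11 (SE) on this probe set, from 9.61 ± 0.13 to 9.22 ± 0.14 (SD, n = 4), a ratio of 0.762 (adjusted p = 0.0205). All 10 arrays gave -0.33 (95% confidence interval -0.68 to 0.01, adjusted p = 0.16).

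The brighter HLF probe set, Bt.20955.1.A1_at, read 9.70, 9.79, 9.80, 9.98 and 10.37 in neighboring samples 1 to 5 against 10.17, 9.95, 10.31, 10.19 and 10.15 in the controls. Neighboring 4 lay just above control 2, so the groups overlapped, and neighboring 5 was the highest array of all. The difference of -0.30 ± 0.10 (SE) passed narrowly (adjusted p = 0.0456). It did not pass on 10 arrays (-0.23, adjusted p = 0.232), and it was lost in 15 of 19 alternative settings. Among these were the fits without neighboring 1, 2 or 3 or without control 1, 4 or 5, with adjusted p up to 0.107. The call of Bt.20955.2.S1_at was lost in 7 of 19, among them the fits without neighboring 3 (adjusted p = 0.0603) and without control 5 (adjusted p = 0.0545).

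**Figure D2:**
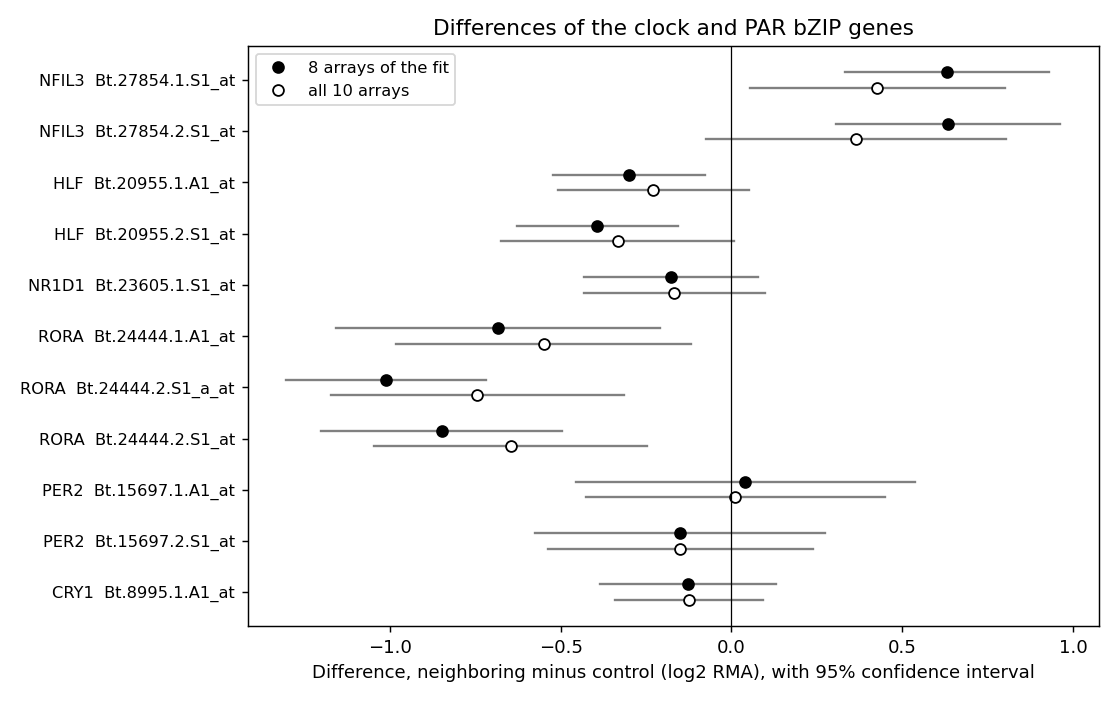
Difference in log2 RMA value, neighboring minus control, for each probe set of the 6 genes, with its 95% confidence interval, on the 8 arrays of the fit (filled) and on all 10 arrays (open). The NFIL3 points lie right of 0 at 0.63 and the RORA points left of 0 between -1.01 and -0.68 on 8 arrays, all 5 move toward 0 on 10 arrays, and the NR1D1, PER2 and CRY1 intervals span 0.

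RORA, the nuclear receptor that activates BMAL1, had the largest difference of the measured genes. On Bt.24444.2.S1_a_at the neighboring arrays read 6.15, 6.30, 6.03, 6.25 and 7.05, against 7.41, 6.87, 6.73, 7.12 and 7.37 in the controls. The first 4 neighboring cows lay within 0.3 of each other and below every control, and neighboring 5 lay inside the control range. RORA fell by 1.01 ± 0.13 (SE), from 7.19 ± 0.25 to 6.18 ± 0.12 (SD, n = 4), a ratio of 0.496 (adjusted p = 0.000697). On all 10 arrays it fell by 0.74 (95% confidence interval -1.17 to -0.31, adjusted p = 0.0357), the one member call that held there. Leaving out each array in turn gave -1.12 to -0.94, with an adjusted p of at most 0.00326.

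The second probe set of that cluster, Bt.24444.2.S1_at, was dim, with 4.72, 4.30, 4.69, 4.46 and 5.26 in the neighboring and 5.39, 4.95, 5.10, 5.54 and 5.68 in the control arrays. It lay under the intensity filter and was tested in a fit of all 24016 probe sets, in which 9.21% were called lower. There it fell by 0.85 ± 0.16 (SE, adjusted p = 0.00497), and on 10 arrays the difference was -0.65 (adjusted p = 0.0532). The names of these probe sets point to the same transcript sequence, so they are not separate evidence.

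The remaining RORA probe set, Bt.24444.1.A1_at, was more variable. Its values were 7.01, 6.52, 6.86, 7.26 and 7.28 in the neighboring arrays and 7.34, 7.28, 7.29, 7.56 and 8.21 in the controls. Control 5 stood well above all other arrays, and neighboring 4 and 5 came within 0.1 of the lowest control. RORA fell by 0.68 ± 0.21 (SE) here (adjusted p = 0.036), and the difference was -0.55 on 10 arrays (adjusted p = 0.0818). Without control 5 it was -0.48 (adjusted p = 0.0693), and the call was also lost without neighboring 1, 2 or 3 or control 4. The 3 RORA probe sets shared the direction, and the size ran from 0.68 to 1.01.

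NR1D1, the nuclear receptor that represses BMAL1 at the element RORA uses, was measured by 1 probe set near the filter, Bt.23605.1.S1_at. Neighboring arrays read 5.92, 6.23, 6.27, 6.38 and 6.53, and controls 6.35, 6.28, 6.66, 6.36 and 6.52. Neighboring 1, 2 and 3 lay below the lowest control, and the other two were mixed with the controls. The difference of -0.18 ± 0.12 (SE) did not pass (adjusted p = 0.263), with a 95% confidence interval of -0.43 to 0.08. On 10 arrays it was -0.17 (adjusted p = 0.348), and without neighboring 1, the lowest array, it was -0.084 (adjusted p = 0.513).

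PER2 and CRY1, the repressors of the core loop, showed no difference that passed. PER2 on Bt.15697.1.A1_at read 8.06, 7.56, 7.83, 7.90 and 8.03 in neighboring glands and 7.80, 8.50, 8.14, 7.63 and 7.27 in control glands. The controls held both the highest array, control 2, and the lowest, control 5, and spanned the whole neighboring range. The mean was 7.84 ± 0.21 in neighboring and 7.80 ± 0.52 in control glands (SD, n = 4), a difference of 0.04 ± 0.22 (SE, adjusted p = 0.905) on 8 arrays and 0.011 (adjusted p = 0.975) on 10, and its sign turned in 8 of 19 alternative settings. Bt.15697.2.S1_at, which read 7.04, 6.54, 6.83, 6.75 and 7.10 against 7.00, 7.50, 7.24, 6.69 and 6.58, again had control 2 highest and control 5 lowest among the controls. Its difference was -0.15 ± 0.19 (SE, adjusted p = 0.571), and -0.15 (adjusted p = 0.569) on 10 arrays.

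With 95% confidence intervals of -0.46 to 0.54 and -0.58 to 0.27, these PER2 data allow a change of either sign. Over the 5 controls the SD of PER2 was 0.47 and 0.38 on its probe sets, against a median of 0.17 over all probe sets tested, and over the 5 neighboring arrays it was 0.20 and 0.23, against a median of 0.20. The spread of PER2 among healthy cows was thus wider than that of most transcripts. A difference in spread between the groups was not tested. CRY1 was even, at 7.92, 7.54, 7.67, 7.80 and 7.75 in neighboring and 8.06, 7.75, 7.86, 7.89 and 7.73 in control arrays. Its difference was -0.13 ± 0.12 (SE, adjusted p = 0.424), with a 95% confidence interval of -0.39 to 0.13, and on 10 arrays -0.12 (adjusted p = 0.392). Without control 1 it was -0.060 and without neighboring 2 -0.062, the smallest of the leave-out values.

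**Figure D3:**
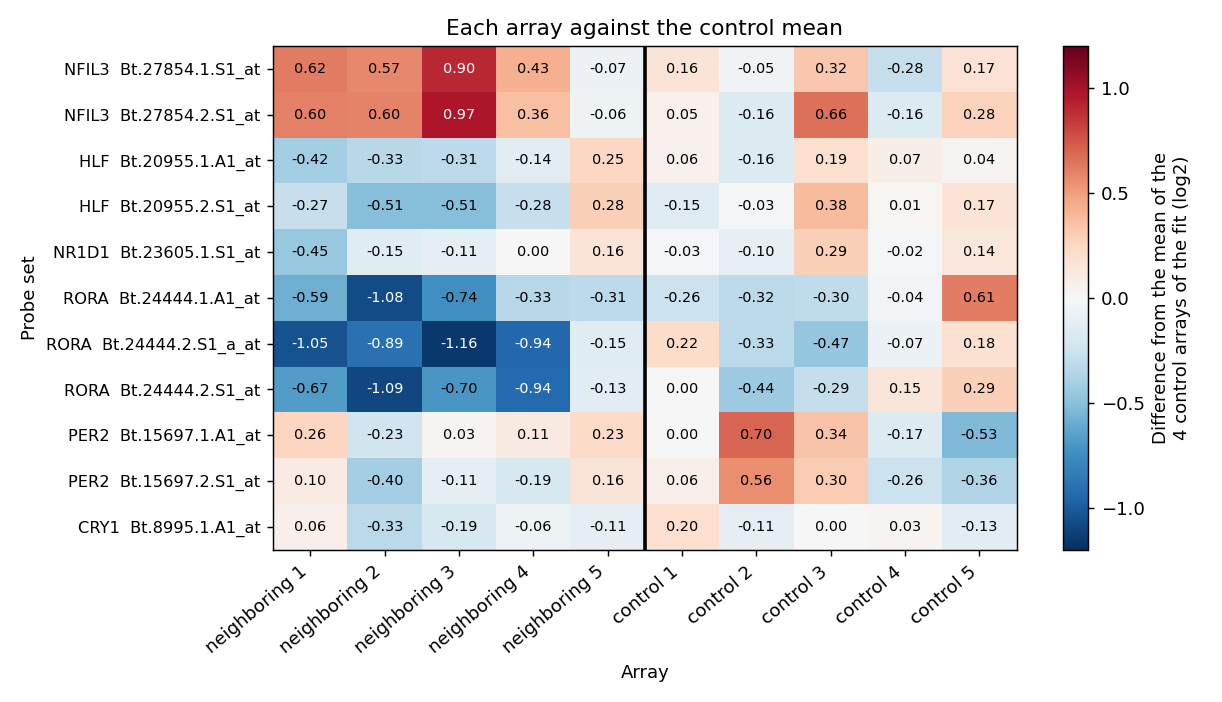
Value of each probe set on each array minus the mean of the 4 control arrays of the fit, in log2 units, with neighboring arrays left of the line and control arrays right of it (red above, blue below the control mean). Neighboring 1 to 4 are red for NFIL3 and blue for HLF and RORA, neighboring 5 has small deviations for NFIL3 and positive ones for HLF, and control 2 and control 5 have the opposite PER2 colours.

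Cow by cow, neighboring 1 to 4 each had NFIL3 above the control mean, by 0.36 to 0.97 over both probe sets, and each had HLF and all RORA probe sets below it. Neighboring 3, the highest for NFIL3 (0.90 and 0.97 above the control mean), was also the lowest for Bt.24444.2.S1_a_at of RORA, at -1.16. On RORA Bt.24444.1.A1_at and Bt.24444.2.S1_at neighboring 2 was the lowest, at -1.08 and -1.09, and neighboring 3 was at -0.74 and -0.70. Neighboring 4 deviated least of the 4 in NFIL3, at 0.43 and 0.36, and also in HLF Bt.20955.1.A1_at, at -0.14. In HLF Bt.20955.2.S1_at neighboring 1 deviated least, at -0.27, with neighboring 4 at -0.28. Neighboring 5 had NFIL3 at -0.07 and -0.06, HLF at 0.25 and 0.28, and RORA at -0.31, -0.15 and -0.13. Of these genes, RORA was the one in which its sign matched the other neighboring cows. Among the controls, control 3 was high for NFIL3 (0.32 and 0.66) and for HLF (0.19 and 0.38) at once.

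The genes whose course over the 10 arrays was most like that of a called member were found among probe sets with 1 symbol by Pearson correlation, as a description over arrays that share the group difference. For NFIL3 they were GANAB, the catalytic subunit of glucosidase II in the endoplasmic reticulum (r = 0.98), RMC1 (r = 0.95), TRADD, an adaptor of the TNF receptor (r = 0.95), and HARS1, the cytosolic histidyl-tRNA synthetase (r = 0.95). For HLF they were TMEM167A (r = 0.96), TCRA, an alpha chain of the T cell receptor (r = 0.93), EED, a subunit of the Polycomb repressive complex (r = 0.93), and HNRNPLL, a splicing regulator of lymphocytes (r = 0.93). For RORA, taken on its brightest called probe set Bt.24444.1.A1_at, they were LDHD, a mitochondrial D-lactate dehydrogenase (r = 0.93), PERM1, a muscle regulator of mitochondrial genes (r = 0.92), SORD, sorbitol dehydrogenase (r = 0.92), and LOC511175 (r = 0.91).

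The clock genes outside the 10 were taken from a list of 26, of which 14 had no probe set with that symbol, among them BMAL1, NPAS2, PER1, PER3 and CRY2, and USP2 was too dim. Of the 11 genes above the filter, counted on their brightest probe set, 3 rose (17.7% of all probe sets tested), 0 fell (12% of all) and 8 did not pass on 8 arrays, and on 10 arrays 0 rose (7.16% of all) and 0 fell (5.37% of all). At an unadjusted p under 0.05 limma gave 4 higher on 8 arrays and 2 on 10, with 0 lower on either. All that rose were protein kinases that phosphorylate clock proteins among many other substrates. CSNK2A1, the catalytic alpha subunit of casein kinase 2, read 8.03, 7.61, 7.72, 7.44 and 6.92 in neighboring arrays 1 to 5 and 7.01 to 7.23 in the 5 controls, a difference of 0.64 ± 0.12 (SE, adjusted p = 0.00447), and 0.45 (adjusted p = 0.0919) on 10 arrays. CSNK1E, the epsilon isoform of casein kinase 1, which phosphorylates PER proteins, read 5.95 to 6.16 in the 4 neighboring arrays of the fit, 5.56 in neighboring 5 and 5.34 to 5.77 in the 5 controls. It rose by 0.51 ± 0.12 (SE, adjusted p = 0.00951), and its difference on 10 arrays was 0.39 (adjusted p = 0.0646).

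GSK3B, a kinase that acts on several clock proteins, read 6.90 to 7.43 in the 4 neighboring arrays of the fit, 6.45 in neighboring 5 and 6.54 to 6.92 in the 5 controls on Bt.18755.2.S1_at. It rose by 0.48 ± 0.12 (SE, adjusted p = 0.0168), against 0.29 (adjusted p = 0.231) on 10 arrays. A dimmer GSK3B probe set above the filter, Bt.18755.1.A1_at, gave 0.16 (adjusted p = 0.389). CSNK1D, the delta isoform, gave 0.27 (adjusted p = 0.283) on its brightest probe set and rose by 0.71 (adjusted p = 0.00793) on Bt.10184.1.S1_a_at, 1 of the 3 above the filter, which gave 0.55 (adjusted p = 0.0505) on 10 arrays. The genes that did not pass were BHLHE40, TIMELESS, CSNK1D, CSNK2B, FBXW11, NONO, SIRT1 and NAMPT, and the list's median difference was 0.20, against 0.03 over all.

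Genes known in other species as targets of PAR bZIP factors or of NFIL3 were described from a list of 7, of which 6 lay above the filter, CYP7A1 being too dim. On 8 arrays 3 of 6 rose (CYP2B6, PDXK and POR, against 17.7% of all probe sets tested), 0 fell (12% of all, and 0 at an unadjusted p under 0.05), and ALAS1, NR1I3 and CES2 did not pass. CYP2B6, a cytochrome P450 of drug metabolism, read 7.19, 8.72, 8.20, 9.34 and 6.43 in the neighboring arrays and 4.79 to 5.41 in the 5 controls. All 5 neighboring arrays, neighboring 5 included, lay above every control. CYP2B6 rose by 3.34 ± 0.37 (SE) or 10.1-fold (adjusted p = 0.000346) and was the 1 target that also rose on 10 arrays (2.90, adjusted p = 0.0152), where 7.16% of all did.

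PDXK, pyridoxal kinase, which makes the active form of vitamin B6, read 9.90, 10.34, 10.25, 9.97 and 9.30 against 8.94 to 9.67 in the controls and rose by 0.88 ± 0.16 (SE, adjusted p = 0.00362), with 0.65 (adjusted p = 0.0512) on 10 arrays. POR, the reductase that hands electrons to microsomal cytochromes P450, read 10.17, 9.55, 9.27, 9.26 and 8.96 against 8.80 to 9.13 and rose by 0.65 ± 0.19 (SE, adjusted p = 0.025), with 0.49 (adjusted p = 0.0998) on 10 arrays. Without control 1 or control 4 its adjusted p was 0.058 and 0.0628. The differences of ALAS1, the first enzyme of heme synthesis, NR1I3, a nuclear receptor for foreign compounds, and CES2, a carboxylesterase, were -0.19, -0.05 and -0.13. The list's median difference was 0.30, against 0.03 over all, and the list was chosen with the change of CYP2B6 in these arrays already known.

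**Figure D4:**
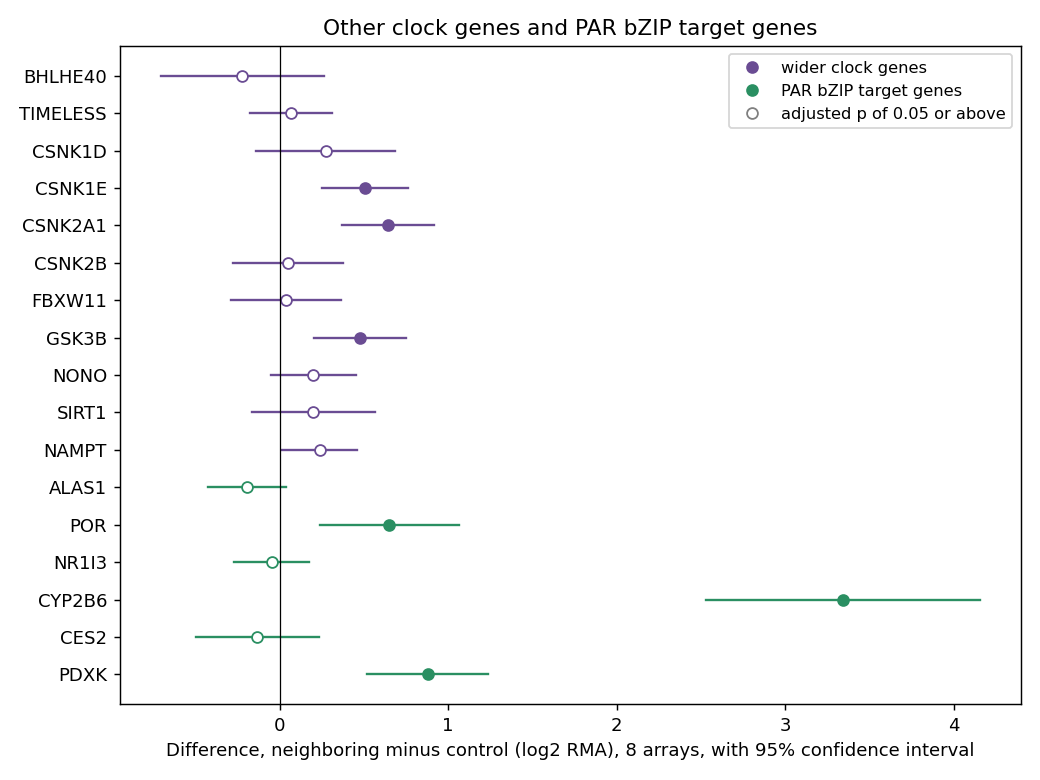
Difference in log2 RMA value, neighboring minus control, with its 95% confidence interval on the 8 arrays of the fit, for the 11 wider clock genes (purple) and the 6 target genes (green) above the filter, each on its brightest probe set, filled where the adjusted p is under 0.05. CYP2B6 lies far right at 3.34, the kinases CSNK1E, CSNK2A1 and GSK3B lie between 0.48 and 0.64, and no filled point lies left of 0.

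On the 8 arrays of the fit, the mean levels of several cell type marker lists also separated the groups. Those of the endothelium and macrophage lists overlapped. Of all probe sets tested on 8 arrays 12% fell and 17.7% rose. Of the smooth muscle and myoepithelium list 5 of 7 measured genes fell and 0 rose, and its mean level was 8.62 to 9.10 in the neighboring arrays of the fit and 9.45 to 10.00 in the controls. Of the fibroblast list 3 of 6 fell and 1 rose, with mean levels of 8.81 to 9.58 against 9.72 to 10.14. The gene that rose was PDGFRA, with 0.50 on its brightest probe set. Another PDGFRA probe set above the filter, Bt.29877.1.A1_at, went the other way, with -0.28 (adjusted p = 0.0407). Of the lymphocyte list 3 of 4 measured genes fell (CD3E, CD3D and CD2, proteins of T cells) and 0 rose, with mean levels of 6.64 to 7.07 against 7.08 to 7.48. The B cell markers MS4A1 and CD79A lay under the filter.

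FABP4, the one adipocyte marker above the filter, fell by 1.10 on 8 arrays on its brightest probe set, and on 10 arrays its difference was -0.66 (adjusted p = 0.128). A dimmer FABP4 probe set above the filter, Bt.22002.1.S1_at, gave -1.11 on 8 arrays and -0.90 (adjusted p = 0.0622) on 10. On it control 3 read 9.70 and neighboring 5 read 9.63, both within the 8.92 to 9.91 of the controls of the fit. The other adipocyte markers lay under the filter. In the fit of all 24016 probe sets on 8 arrays, CIDEC fell by 0.66 (adjusted p = 0.0157) and LEP by 0.52 (adjusted p = 0.00807) on 1 of its 2 probe sets, and ADIPOQ gave -0.31 (adjusted p = 0.141). Of the epithelium list 1 of 8 genes, EPCAM, rose and 0 fell by limma, and 2 were higher at an unadjusted p under 0.05. The epithelium list had mean levels of 12.83 to 13.01 in the neighboring arrays of the fit and 12.72 to 12.77 in the controls. It stood at 12.80 in neighboring 5 and 12.83 in control 3. Of the endothelium list (4 genes) and of CD68 and CSF1R, markers of macrophages, 0 rose and 0 fell by limma. At an unadjusted p under 0.05, 1 endothelial gene was higher and 1 lower. On 10 arrays 3 smooth muscle and 4 fibroblast genes fell (5.37% of all probe sets tested did), and 0 lymphocyte genes (2 at an unadjusted p under 0.05). Neighboring 5, in which NFIL3 lay within the control range and HLF within or above it, had the lymphocyte list at 7.49, above the controls. It had the brightest FABP4 probe set at 12.84, inside the range of 12.59 to 13.02 of the controls of the fit, with control 3 at 11.75. Its fibroblast list stayed low at 9.41. Its smooth muscle list, at 9.39, lay above the other neighboring arrays (up to 9.10) and just under the lowest control (9.45). The part of cell makeup in the differences of NFIL3, HLF and RORA was not tested.

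**Figure D5:**
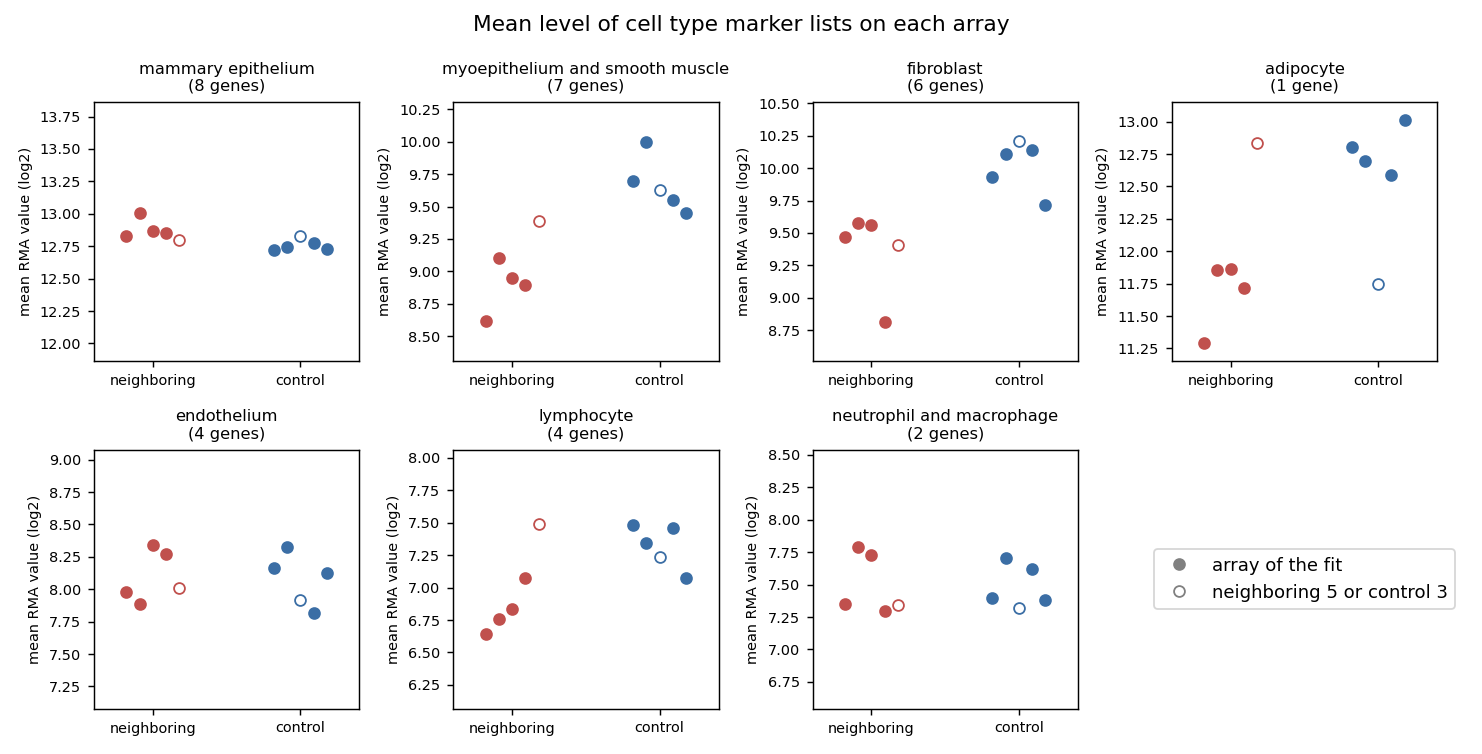
Mean RMA value (log2) over the genes above the filter of 7 cell type marker lists on each array, open points for neighboring 5 and control 3. The smooth muscle, fibroblast, lymphocyte and adipocyte panels show the 4 filled neighboring points below the 4 filled control points. The epithelium panel shows the filled neighboring points above the filled control points. The epithelium, endothelium and macrophage panels span less than 0.6.

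The array's hybridization controls, foreign transcripts added in set amounts, also differed between the groups, with mean levels of 10.20 to 10.43 in the neighboring and 10.42 to 10.84 in the control arrays of the fit, and 10.65 in neighboring 5 and 10.64 in control 3. With this level as a covariate limma called 0 member probe sets higher (1.05% of all) and 0 lower (0.687% of all), and at an unadjusted p under 0.05 both NFIL3 probe sets were higher and 1 member was lower. The differences were then 0.78 ± 0.24 and 0.66 ± 0.27 (SE) for NFIL3, -0.24 ± 0.18 and -0.39 ± 0.19 for HLF, and -0.54 ± 0.38 and -0.72 ± 0.21 for RORA, with adjusted p from 0.11 to 0.516. For the RORA probe set under the filter, Bt.24444.2.S1_at, it was -1.01 ± 0.28 (SE, adjusted p = 0.128), larger than without the covariate, and for NR1D1 it was -0.037. The covariate and the group were nearly the same split of these arrays, and their parts cannot be told apart.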

How the data were processed

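Deposited were the authors' log2 RMA values of probe sets on the Affymetrix GeneChip Bovine Genome Array (background correction, quantile normalization, summary over probes), with versions not given in the sources used here. The quantile step hides a change shared by most transcripts, and RMA compresses large changes. Arrays were grouped by title. The 112 array controls were left out of the tests, and 13292 probe sets had exactly 1 symbol by annotation. Differences were fitted with limma 3.58.1 in R 4.3.3 (lmFit, eBayes) and Benjamini-Hochberg adjustment over 14409 probe sets, after leaving out the 40% with the lowest mean over 10 arrays (under 5.71) in place of the present calls of the study, which need probe-level signals not used here. Every adjusted p is limma's, and SE is its moderated standard error. Means are over 4 arrays per group, so precision rests on few arrays. Replicates are separate cows. Identical value columns numbered 0. The procedure was tested on simulated data. Named were all member probe sets, the called wider clock and target genes (at most 12), BMAL1, NPAS2, PER1, PER3 and CRY2, and the 4 genes most correlated with each called member. Genes outside this rule (second probe sets, genes that did not pass and cell type markers) were named after their values were seen. Members and lists were chosen with earlier results of these data known. Alternatives covered arrays, filter, scaling, variance model, array weights, a hybridization covariate, the replicate number as a block, thresholds and the probe set per gene.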

Additional observations from a re-analysis of the deposited data

Results flagged for a closer look

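In the RORA probe set Bt.24444.2.S1_a_at, neighboring 5 stood apart from its own group. Its value was 7.05, and the nearest of the other neighboring arrays was at 6.30, a gap of 0.734 of the group's whole range, above the limit of 0.71 for 5 samples. It was the 1 case among 22 groups of 5 checked over the member probe sets, and chance gives about 1 in 20.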

How the results depend on the processing

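The direction held under every alternative for all probe sets of NFIL3, HLF, RORA, NR1D1 and CRY1. For the 2 NFIL3 probe sets that rose, the count was 0 on all 10 arrays, with neighboring 5 put back, with the hybridization covariate, on 10 arrays with the replicate block and at the threshold of the study, and 1 with control 3 put back. For the 4 member probe sets that fell, the count was 1 on all 10 arrays, with neighboring 5 put back, with the replicate block and at the threshold of the study, 2 on 10 arrays with the replicate block and 0 with the hybridization covariate. Leaving out 1 array gave 1 to 4 that fell (1 without neighboring 3 or control 5, 2 without neighboring 1, neighboring 2 or control 4) and 2 that rose each time. Of the wider clock genes, 0 rose on 10 arrays, with or without the replicate block, with neighboring 5 put back and with the hybridization covariate. At the threshold of the study 0 rose as well. BHLHE40, a repressor of the loop, fell with the replicate block (1 gene, -0.54, adjusted p = 0.0493), a fit that rests on replicates 1, 2 and 4. BHLHE40 did not pass in the main fit (-0.22, adjusted p = 0.46) or on 10 arrays (-0.22, adjusted p = 0.439). Of the targets, 1 rose on 10 arrays, with neighboring 5 put back and with the hybridization covariate. PER2 Bt.15697.1.A1_at turned to -0.027 with control 3 put back, -0.091 with array weights, -0.037 with cyclic loess, -0.074 with the hybridization covariate, -0.13 with the replicate block, and ran from -0.14 to 0.27 when 1 array was left out. PER2 Bt.15697.2.S1_at ran from -0.27 to 0.036 then. The cause was not tested.

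The numbers of the replicates do not pair the cows, whose same-number correlations of deviations ran from -0.19 to 0.17. In the block fit on 8 arrays, replicates 3 and 5 had an array in a single group. The differences of that fit therefore rest on replicates 1, 2 and 4. There RORA Bt.24444.2.S1_a_at was the 1 member probe set above the filter that fell, and both NFIL3 probe sets rose. RORA Bt.24444.2.S1_at, under the filter, also fell (-0.80, adjusted p = 0.027). Of the members, NR1D1, near the filter, and the RORA probe set under it give the least signal over background.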
